A study of Bos taurus with 6 samples.

Results

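The mesenchymal patterning and lineage transcription factors are 10 genes chosen by name: TWIST1, TWIST2 and TCF21 of the basic helix-loop-helix (bHLH) family, PRRX1 and PITX1 of the homeobox family, TBX5 and TBX15 of the T-box family, the Runt factors RUNX1 and RUNX2, and SOX9. Of these, 8 were found among the 17663 genes of the deposited expression table, and the same 8 were among the 13482 genes that passed the filter on low counts and were tested. TBX5 and TCF21 were not analysed here.

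Mesenchyme is the loose embryonic tissue from which fibroblasts, cartilage, bone, fat and tendon arise. Factors of these families give its cells a position in the body and a lineage, and cultured fibroblasts are known to keep much of the positional pattern of the site they came from. TWIST1, PRRX1 and TBX15 act in head, limb and trunk mesenchyme, whereas SOX9 and RUNX2 direct cartilage and bone.

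Expression was measured by poly(A) RNA-seq in bEFs, primary fibroblasts grown from cattle fetuses of 50–60 days. Bone, visceral, limb and head tissue was left out before culture. The FT group is 3 fetuses with an exogenous fat-1 gene, which encodes a nematode desaturase that makes n-3 PUFA from n-6 PUFA, and the WT group is 3 wild-type fetuses of the Luxi breed. Each fetus gave 1 library, numbered 1 to 3 within its group, with 48167642 (FT_2) to 69777641 (WT_1) counts in total. The comparison asked which genes differ between cells with and without the transgene. The promoter and insertion site of the transgene and the breed of the FT fetuses are not given in the sources used here, so an effect of breed or of insertion and an effect of fat-1 cannot be told apart.

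The cells carried the label of fibroblasts, and all 12 fibroblast markers listed for the check were found. Their summed level was 17966.6, 17410.2 and 17504.4 FPKM (fragments scaled by gene length and library total) in WT_1, WT_2 and WT_3. It was 7174.57 FPKM in FT_1, 17256.1 in FT_2 and 17002.5 in FT_3. VIM, which encodes vimentin, was the most abundant marker, and none of the 12 was near 0 in any library. FT_1 had the lowest sum of the 6 libraries.

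FT_1 stood apart from the other FT libraries in more than this sum. Fitted to pairs of libraries, the biological coefficient of variation (spread past counting noise) was 56.9% for FT_1 with FT_2 and 57.6% for FT_1 with FT_3. FT_2 with FT_3 gave 8.25%, and pairs of WT libraries gave 9.99–13.4%. In FT_1, 2544 of 13482 genes (18.9%) lay more than 2-fold above or more than 2-fold below both FT_2 and FT_3, a limit chosen after the values were seen. In each of the other 5 libraries, 1.45–2.41% of genes lay that far from both partners of the group. Among the 8 factors, 4 did so in FT_1. PITX1 and SOX9 were higher, as were 9.24% of all genes, and TWIST2 and TBX15 were lower, as were 9.63%. In WT_1, 2 of the 8 factors were lower by that rule, and in FT_3 1 was. Since FT_1 stood furthest apart, each of the 8 factors is compared with and without it.

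RUNX1 and RUNX2 were the 2 factors up-regulated in FT cells, and both were higher in each FT library than in each WT library. None of the 8 factors was down-regulated. A gene was called up- or down-regulated at an adjusted p under 0.05 from edgeR's quasi-likelihood test on the counts, with Benjamini-Hochberg adjustment over all genes tested. By this rule 39% of all genes were called, 20.1% as higher and 18.9% as lower in FT cells, so 2 of 8 is near the share of all genes. An unadjusted p under 0.05 (49.6% of all genes) also gave 2 higher and 0 lower factors, and limma (44.2%) gave 2 and 0. DESeq2 (47%) gave 3 and 0, with PITX1 added. Without FT_1, 5 of the 8 factors were higher (RUNX1, RUNX2, TWIST2, TBX15 and PRRX1) and 0 lower, where 62.1% of all genes were called, 30.6% as higher and 31.5% as lower. The median log2 fold change of the 8 factors was 0.52 with all libraries and 0.57 without FT_1, against 0.03 and -0.02 for all genes tested.

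**Figure D1:**
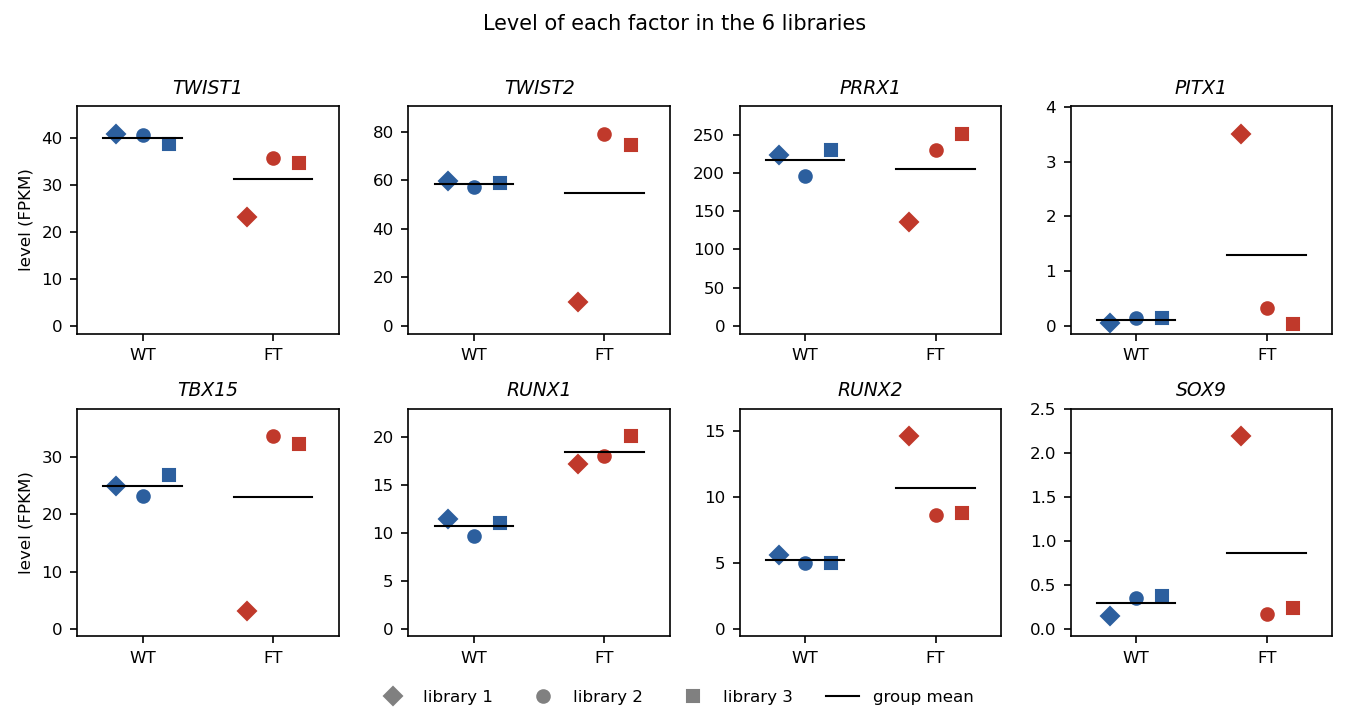
Level (FPKM, vertical axis, a scale of its own in each panel) of the 8 factors in WT (blue) and FT (red) libraries, with a marker shape for each library number and a line at the group mean. Equal numbers are not taken as pairs of fetuses. The RUNX1 and RUNX2 points of FT cells lie above those of WT cells, and FT_1 (red diamond) lies far below FT_2 and FT_3 for TWIST2 and TBX15 and far above them for PITX1 and SOX9.

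TWIST1 and TWIST2 encode bHLH factors that dimerise with E proteins, hold mesenchymal cells in an undifferentiated state and are known from the epithelial to mesenchymal transition (EMT). TWIST1 (ENSBTAG00000046922, chromosome 4, 27817880 to 27819874, minus strand) had 40.84, 40.49 and 38.63 FPKM in WT_1, WT_2 and WT_3. It had 23.18 FPKM in FT_1, 35.69 in FT_2 and 34.51 in FT_3. All FT libraries were below all WT libraries on the FPKM scale, and FT_1 was the lowest. The groups were free of overlap in this measure for 58.7% of all genes, with FT below WT for 36.9% and above it for 21.8%. After TMM scaling of the counts the groups overlapped, with 57.0 and 55.8 in FT_2 and FT_3 and 55.3 to 58.2 in WT cells (counts scaled to library size, CPM). The log2 fold change was -0.20 (standard error 0.18, 95% interval -0.64 to 0.24, edgeR adjusted p = 0.419), and -0.02 (standard error 0.07, edgeR adjusted p = 0.840) without FT_1. An exact two-sided permutation test on log2(FPKM + 1) gave p = 0.1, the smallest p that 3 libraries against 3 allow. Over 14 other fits the adjusted p of TWIST1 ran from 0.1197 to 0.840.

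TWIST2 (ENSBTAG00000021444, chromosome 3, 118051375 to 118103633, plus strand) had 59.51, 57.42 and 58.77 FPKM in the WT libraries. In FT cells it had 9.74 FPKM in FT_1, 79.22 in FT_2 and 74.72 in FT_3. The WT values lay between the FT values: FT_2 and FT_3 were above every WT library and FT_1 was far below, with their mean 7.90 times the level of FT_1. With all 6 libraries the log2 fold change was 0.07 (standard error 0.70, 95% interval -1.64 to 1.77, edgeR adjusted p = 0.949). Without FT_1 it was 0.56 (standard error 0.06, 95% interval 0.42 to 0.71, edgeR adjusted p = 3.89e-05), which passed the threshold. In bulk RNA, fewer cells of a type and less RNA per cell cannot be told apart, here or for the other factors. The call rested on leaving FT_1 out, since over the 14 other fits, that fit included, 1 called TWIST2 and the adjusted p ran up to 0.974.

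PRRX1 and PITX1 encode paired-class homeobox factors. PRRX1 is a general factor of limb, face and body wall mesenchyme, and PITX1 is best known for setting hindlimb identity and for the pituitary. PRRX1 (ENSBTAG00000004570, chromosome 16, 38201016 to 38286243, plus strand) had 222.66, 196.39 and 229.64 FPKM in WT_1, WT_2 and WT_3. It had 135.57 FPKM in FT_1, 229.3 in FT_2 and 251.25 in FT_3. PRRX1 was the most abundant of the 8 factors in every library, the groups overlapped, and FT_1 was again the lowest. Its log2 fold change was 0.09 (standard error 0.25, 95% interval -0.51 to 0.69, edgeR adjusted p = 0.798). Without FT_1 it was 0.32 (standard error 0.08, 95% interval 0.14 to 0.51, edgeR adjusted p = 0.00664), and this was the fit of 14 in which PRRX1 was called, with adjusted p up to 0.996 in the rest.

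PITX1 (ENSBTAG00000004602, chromosome 7, 46474432 to 46481011, minus strand) was near the limit of detection outside FT_1. It had 536 counts in FT_1, 38 in FT_2 and 6 in FT_3, or 3.51, 0.32 and 0.04 FPKM. WT_1, WT_2 and WT_3 had 8, 19 and 19 counts, or 0.05, 0.15 and 0.15 FPKM. FT_1 alone was high, and FT_2 was above each WT library. FT_3 was below the WT libraries in FPKM, but in TMM-scaled CPM it lay within their range (0.118, against 0.109 to 0.351). The 95% Poisson interval of the count was 2.20 to 13.1 in FT_3 and 26.9 to 52.2 in FT_2, and it covers counting error only. The log2 fold change of 3.62 (standard error 1.51, 95% interval -0.08 to 7.32, edgeR adjusted p = 0.107) did not pass the threshold, and without FT_1 it was 0.85 (standard error 0.85, edgeR adjusted p = 0.407). DESeq2 called PITX1 (adjusted p = 0.0124), as did edgeR without FT_3 (adjusted p = 0.0443), within a range of 0.0124 to 0.520 over 14 fits.

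TBX15 encodes a T-box factor of the trunk dermis, the skeleton and fat depots. It lies on chromosome 3, 24129991 to 24254368, plus strand (ENSBTAG00000007767). Its level was 25, 23.21 and 26.87 FPKM in WT_1, WT_2 and WT_3, and 3.02 FPKM in FT_1, 33.66 in FT_2 and 32.31 in FT_3. As for TWIST2, the FT libraries lay on both sides of the WT libraries, with FT_1 far below and FT_2 and FT_3 above all WT libraries. The mean of FT_2 and FT_3 was 10.9 times FT_1 and 1.32 times the WT mean. The log2 fold change was 0.05 (standard error 0.79, 95% interval -1.87 to 1.97, edgeR adjusted p = 0.967) with all libraries. Without FT_1 it was 0.57 (standard error 0.08, 95% interval 0.40 to 0.74, edgeR adjusted p = 1.24e-04). Again the fit without FT_1 was the 1 of 14 in which the gene was called, and the adjusted p reached 0.996 in the others.

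RUNX1 and RUNX2 encode Runt factors, which bind DNA with the beta subunit encoded by CBFB. RUNX1 is needed for blood stem cells and also acts in mesenchyme, and RUNX2 is the main switch of the osteoblast lineage. RUNX1 (ENSBTAG00000004742, chromosome 1, 146975141 to 147244722, minus strand) had 11.5, 9.65 and 11 FPKM in WT_1, WT_2 and WT_3. It had 17.21 FPKM in FT_1, 18.04 in FT_2 and 20.08 in FT_3. The groups did not overlap, and FT_1 lay close to the other FT libraries, unlike for TWIST2 and TBX15. RUNX1 was up-regulated by 0.94 in log2 fold change (standard error 0.11, 95% interval 0.67 to 1.22, edgeR adjusted p = 0.00216), higher in 3 of 3 FT libraries. Without FT_1 it was 1.001 (standard error 0.10, edgeR adjusted p = 1.77e-05). All 14 other fits called RUNX1, with adjusted p between 4.51e-11 and 0.0170.

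RUNX2 (ENSBTAG00000004104, chromosome 23, 18594098 to 18945527, plus strand) had 5.61, 5 and 5.01 FPKM in WT_1, WT_2 and WT_3. It had 14.63 FPKM in FT_1, 8.66 in FT_2 and 8.77 in FT_3. Again the groups did not overlap, and FT_1 was the highest library at 1.68 times the mean of FT_2 and FT_3. In TMM-scaled CPM too, RUNX1 and RUNX2 were above WT in each FT library, as were 28.3% of all genes, while 29.4% were below in each. RUNX2 was up-regulated by 1.19 in log2 fold change (standard error 0.21, 95% interval 0.67 to 1.72, edgeR adjusted p = 0.00796), and without FT_1 the value was 0.91 (standard error 0.09, edgeR adjusted p = 1.18e-05). All 14 other fits called it too, with adjusted p between 4.74e-06 and 0.0427. The exact permutation test gave p = 0.1 for each of RUNX1 and RUNX2. RUNX2 shares its locus with SUPT3H on the other strand, a gene named after its values were seen, which had 3.72, 1.41 and 1.27 FPKM in FT_1, FT_2 and FT_3 and 3.42, 3.48 and 2.95 FPKM in the WT libraries. Whether the counting used strand is not given in the sources used here, so reads of these overlapping genes cannot be told apart.

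SOX9 encodes the main switch of the cartilage lineage, which is also expressed in many epithelia. SOX9 (ENSBTAG00000045824, chromosome 19, 58919579 to 58923174, minus strand) had 293 counts in FT_1, 17 in FT_2 and 28 in FT_3, or 2.19, 0.17 and 0.24 FPKM. WT_1, WT_2 and WT_3 had 22, 38 and 43 counts, or 0.15, 0.35 and 0.37 FPKM. As for PITX1, FT_1 was the 1 library with a clear signal, and the other 5 overlapped at a low level. The log2 fold change was 1.71 (standard error 1.06, 95% interval -0.87 to 4.29, edgeR adjusted p = 0.244), and without FT_1 its sign turned to -0.32 (standard error 0.59, edgeR adjusted p = 0.656). None of the 14 other fits called SOX9.

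**Figure D2:**
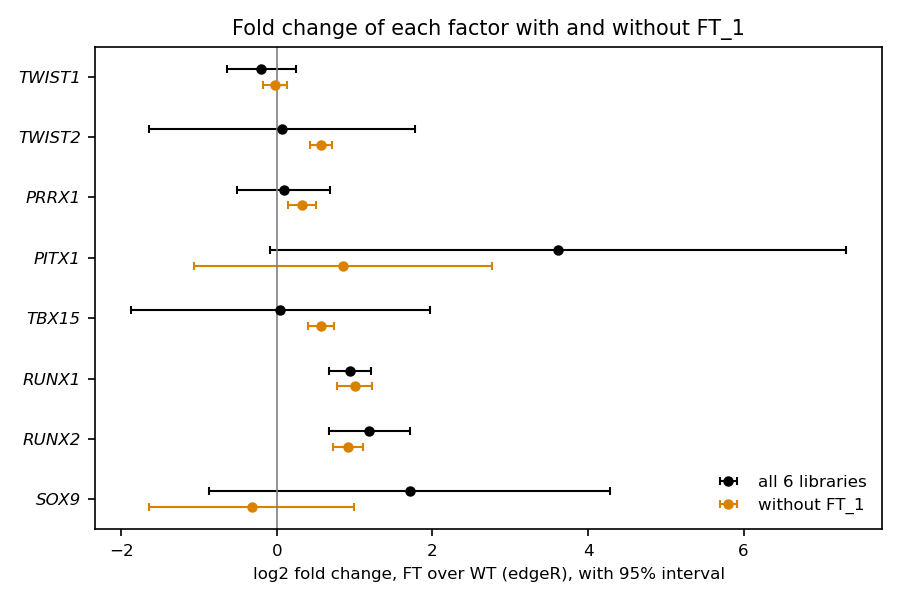
Log2 fold change of FT over WT cells from edgeR (horizontal axis) with its 95% interval for each of the 8 factors, from all 6 libraries (black) and without FT_1 (orange). The intervals of TWIST2 and TBX15 span 0 with all libraries and lie above it without FT_1, while those of RUNX1 and RUNX2 lie above 0 in both fits.

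The order of the factors by FPKM level was PRRX1, TWIST2, TWIST1, TBX15, RUNX1, RUNX2, SOX9 and PITX1 in WT cells. Of neighbours in this order, only SOX9 (0.15–0.37 FPKM) and PITX1 (0.05–0.15 FPKM) overlapped over the 3 WT libraries. In FT cells the order by group mean was the same down to RUNX2, and PITX1 came before SOX9. There, TWIST2 overlapped TWIST1, TWIST1 overlapped TBX15 and TBX15 overlapped RUNX1, each through the low value of FT_1, and PITX1 overlapped SOX9. In FT_1 TBX15 (3.02 FPKM) was below RUNX2 (14.63 FPKM) and TWIST2 (9.74 FPKM) below TWIST1 (23.18 FPKM), whereas in FT_2 and FT_3 the order of these 4 was that of WT cells.

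**Figure D3:**
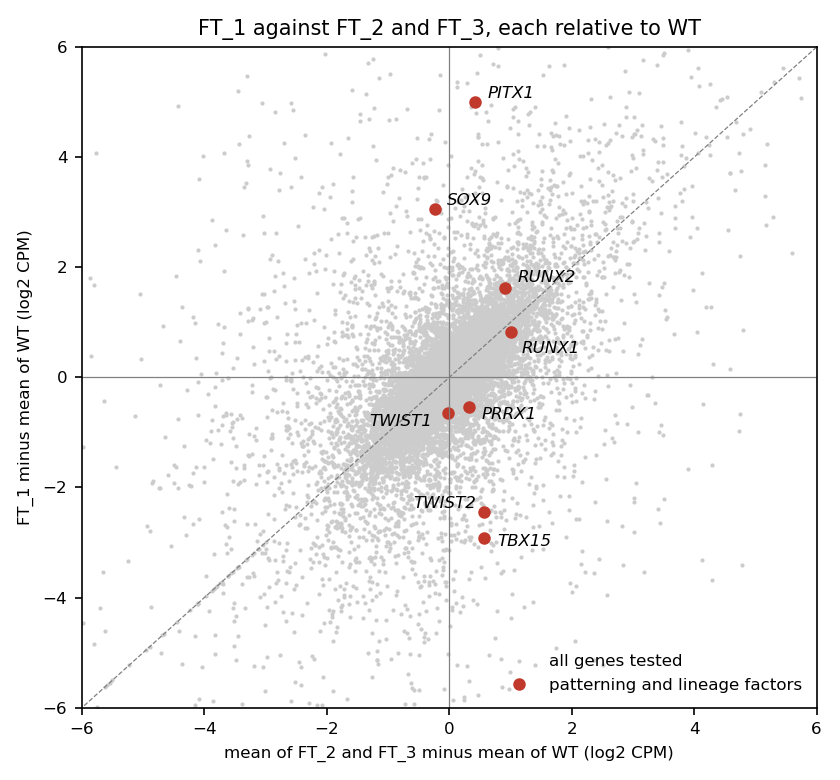
Difference from the WT mean in log2 CPM for FT_1 (vertical axis) against the mean of FT_2 and FT_3 (horizontal axis), with the 13482 tested genes in grey (points past 6 lie outside the axes) and the 8 factors in red; the dashed line marks equal differences. RUNX1 lies near the line and RUNX2 above it, both at positive values, and TWIST2, TBX15, PITX1 and SOX9 lie far from it.

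The factor with the largest fitted rise was PITX1, and the genes whose profiles over the 6 libraries were nearest to it among 11946 genes with a symbol included SEMA3G and FUT1. The Euclidean distances between centred log2 CPM values were 1.05 and 1.28. SEMA3G had 2.15 FPKM in FT_1 and 0.02–0.19 FPKM elsewhere, and FUT1 had 3.24 and 0.02–0.21 FPKM, so both were high in FT_1 alone. The factor with the largest fitted fall was TWIST1, nearest to YPEL5 (0.0858), VPS45 (0.103) and NTPCR (0.110), which were lowest in FT_1 as well.

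The relatives and partners of the factors were taken as 8 lists of 95 transcription factor and cofactor genes, of which 82 were found and 64 tested. In FT cells, 18 of the 64 were up-regulated and 10 were down-regulated (43.8% called, beside 39% of all genes). The median of their log2 fold changes was 0.81, beside 0.03 over all genes. Without FT_1, 36 of 66 were up-regulated and 16 were down-regulated, with a median of 0.82, where 62.1% of all genes were called. FT_1 lay more than 2-fold from both FT_2 and FT_3 in 32 of the 64 (50%), above them in 14 and below them in 18, beside 18.9% of all genes.

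**Figure D4:**
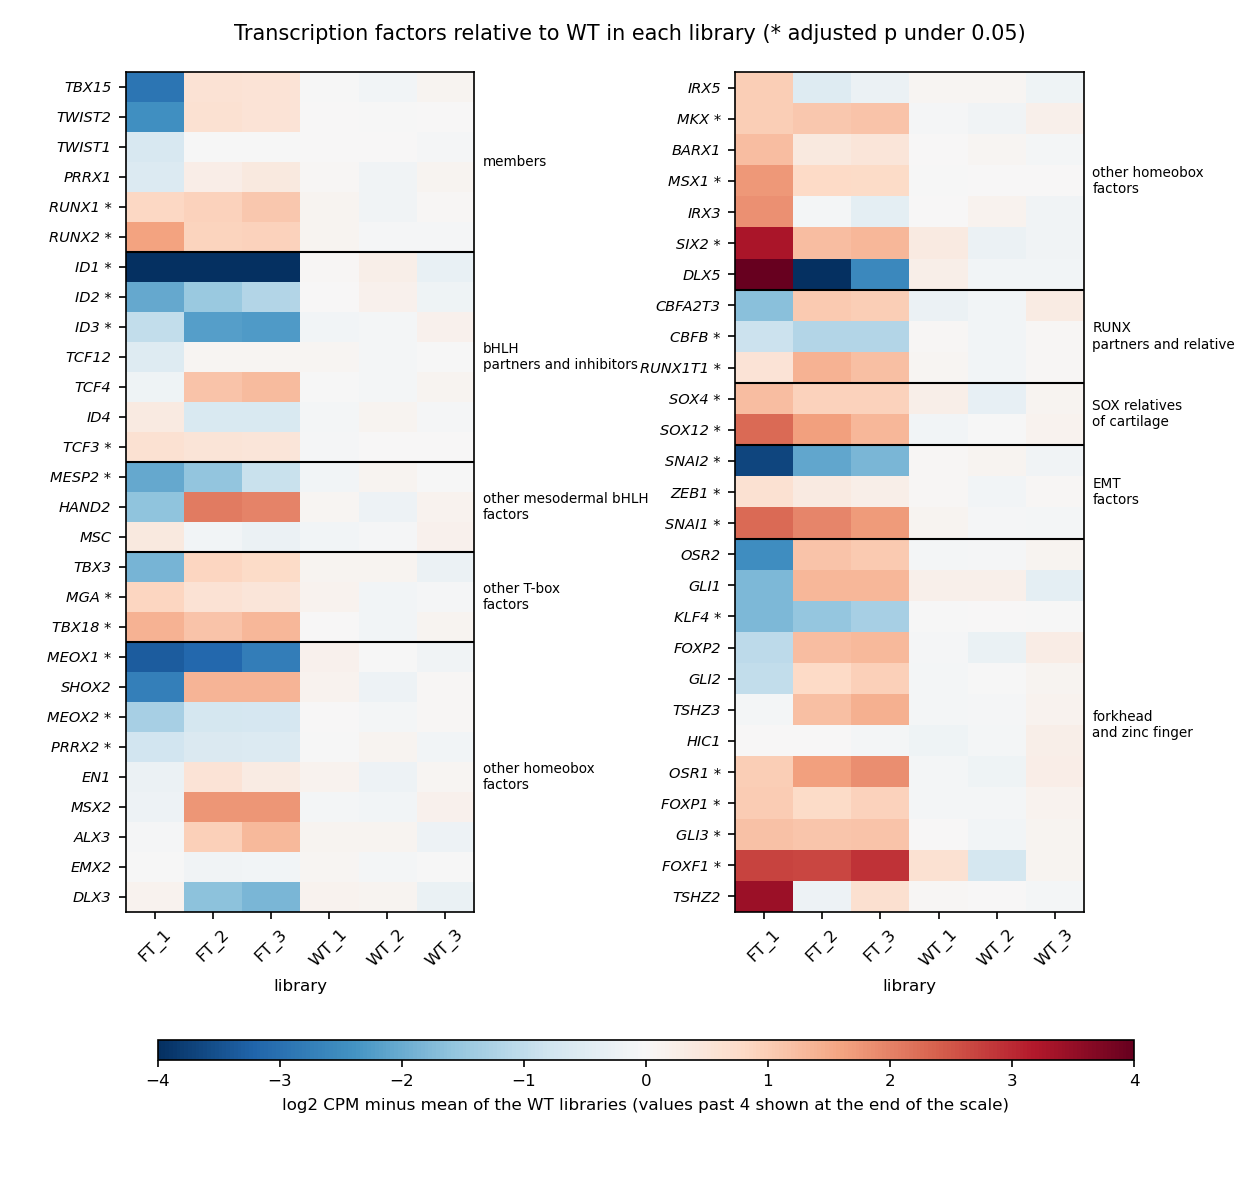
Log2 CPM of each library minus the mean of the WT libraries (colour scale from -4 to 4) for most factors and relatives with a mean of at least 1 FPKM, grouped by list, with an asterisk at an edgeR adjusted p under 0.05 over all 6 libraries. TBX15, TWIST2, SHOX2 and OSR2 are low in FT_1 and high in FT_2 and FT_3, while RUNX1, RUNX2, TBX18 and GLI3 are high in all 3.

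Among the bHLH partners, E proteins pair with the TWIST proteins and the ID proteins sequester E proteins. Of the 7 tested, 1 was up-regulated and 3 were down-regulated (57.1% called, beside 39% of all genes). Without FT_1 the numbers were 2 and 4, where 62.1% of all genes were called. The median log2 fold change of the 7 was -0.20, and -0.61 without FT_1. ID1 had 70, 79.4 and 54.65 FPKM in the WT libraries and 2.49, 1.45 and 0.98 FPKM in FT_1, FT_2 and FT_3. Its log2 level fell by 5.21 (standard error 0.39, edgeR adjusted p = 7.79e-04), and ID2 fell by 1.53 (standard error 0.23, edgeR adjusted p = 0.00433). ID1 and ID2 were below WT in all 3 FT libraries and were called in all 14 other fits. ID3 fell by 1.69 (standard error 0.38, edgeR adjusted p = 0.0160) and by 2.25 without FT_1 (adjusted p = 1.28e-07), but it was not called once WT_1, WT_2 or WT_3 was left out (adjusted p up to 0.0585). The E protein gene TCF3 rose by 0.54 (standard error 0.07, edgeR adjusted p = 0.00272), with 10.77–11.98 FPKM in FT cells and 8.51–8.84 FPKM in WT cells. TCF4, another E protein gene, had 8.08, 19.84 and 21.08 FPKM in FT_1, FT_2 and FT_3 against 9.56–10.67 FPKM in WT cells, and edgeR called it without FT_1 (log2 fold change 1.20, adjusted p = 1.46e-06) but not with all libraries (0.87, adjusted p = 0.105). Of the 14 other fits, DESeq2 with all libraries also called TCF4 (adjusted p = 0.0400), and the adjusted p ran up to 0.310.

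Of the other mesodermal bHLH genes, 5 were tested and MESP2 was called (20%, beside 39% of all genes). It had 0.4, 0.55 and 0.9 FPKM in the FT libraries and 1.77, 2.08 and 1.9 FPKM in the WT libraries (log2 fold change -1.47, standard error 0.39, edgeR adjusted p = 0.0277). The call was lost without FT_2, WT_1, WT_2 or WT_3 (adjusted p up to 0.0944). HAND2, named after its values were seen, followed the libraries as TWIST2 and TBX15 did, with 0.46, 6.01 and 5.63 FPKM in FT_1, FT_2 and FT_3 against 1.38–1.73 FPKM in WT cells.

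Of 7 other T-box genes tested, TBX18 and MGA were up-regulated and the remaining 5 passed in neither direction. The share called was 28.6%, beside 39% of all genes, 20.1% as higher. The median log2 fold change of the 7 was 0.34, and 0.73 without FT_1. TBX18, a factor of the somites, heart and urogenital mesenchyme, had 25.33, 20.77 and 23.35 FPKM in FT_1, FT_2 and FT_3 and 10.61, 9.86 and 11.3 FPKM in WT_1, WT_2 and WT_3. It was high in all 3 FT libraries, and its log2 fold change was 1.29 (standard error 0.10, edgeR adjusted p = 8.48e-04). MGA, a large T-box protein that dimerises with MAX, rose by 0.64 (standard error 0.13, edgeR adjusted p = 0.0111), a call lost in limma (adjusted p = 0.0513) and without WT_2 or WT_3 (adjusted p up to 0.0531), in a range up to 0.0914 over 14 fits. TBX3 and TBX1, named after their values were seen, set FT_1 apart. TBX3 had 0.82 FPKM in FT_1 and 5.3 and 4.93 FPKM in FT_2 and FT_3, and TBX1 had 3.2 FPKM in FT_1 and 0 in the other 5 libraries.

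Of 20 other patterning homeobox genes tested, 4 were up-regulated and 3 were down-regulated (35% called, beside 39% of all genes). Without FT_1 the numbers were 11 and 7 of 22, where 62.1% of all genes were called. The median log2 fold change with all libraries was 0.82. FT_1 lay more than 2-fold from both other FT libraries in 11 of the 20, beside 18.9% of all genes. PRRX2, the closest relative of PRRX1, had 177.04, 190.73 and 164.88 FPKM in the WT libraries and 96.08, 107.07 and 105.98 FPKM in the FT libraries. Its log2 level fell by 0.62 (standard error 0.10, edgeR adjusted p = 0.00455) and was called in all 14 other fits, whereas PRRX1 itself was not called with all libraries. MEOX1, a somite factor, fell by 3.06 (standard error 0.18, edgeR adjusted p = 5.23e-04), from 27.09–33.73 FPKM in WT cells to 2.73–3.92 FPKM in FT cells. MKX, a factor of tendon, rose by 1.06 (standard error 0.11, edgeR adjusted p = 0.00153), with 27.53, 28.46 and 29.22 FPKM in the FT libraries and 13.67–17.31 FPKM in WT cells.

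Other homeobox genes, named after their values were seen, were split by library within FT cells. DLX5 had 8.11, 0 and 0.04 FPKM in FT_1, FT_2 and FT_3 against 0.41–0.53 FPKM in WT cells, and LMX1B had 4.09 FPKM in FT_1 and at most 0.03 FPKM elsewhere. SHOX2 ran the other way, with 0.79, 13.74 and 13.42 FPKM in FT_1, FT_2 and FT_3 against 5.17–6.62 FPKM in WT cells.

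Of 4 partners and relatives of the RUNX factors tested, 3 were called (75%, beside 39% of all genes). All 3 kept their direction in each FT library. In TMM-scaled CPM, 57.7% of all genes had groups free of overlap, as these 3 did. CBFB, the shared beta subunit, had 46.54, 41.66 and 45.43 FPKM in the WT libraries and 22.35, 17.57 and 17.57 FPKM in the FT libraries. It was therefore lower in the cells in which RUNX1 and RUNX2 were higher, and its log2 fold change was -1.06 (standard error 0.12, edgeR adjusted p = 0.00168) and -1.17 without FT_1 (standard error 0.09, edgeR adjusted p = 2.66e-06). RUNX3 had 304, 146 and 197 counts (1.52, 0.96 and 1.16 FPKM) in FT_1, FT_2 and FT_3 and 0 counts in each WT library. Against a floor of 3 counts over the WT group it was at least 253-fold higher in FT cells (edgeR adjusted p = 0.00130). The corepressor gene RUNX1T1 had 6.55, 11.58 and 9.97 FPKM in the FT libraries and 4.58–5.19 FPKM in WT cells. It rose by 1.08 (standard error 0.22, edgeR adjusted p = 0.0118), and the call was lost without WT_2 (adjusted p = 0.0576).

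Among the SOX relatives, SOX12 and SOX4 were up-regulated of 3 tested, where 39% of all genes were called. The median log2 fold change of the 3 was 1.81, and 0.89 without FT_1. SOX12 had 8.78, 5.66 and 4.51 FPKM in the FT libraries and 1.83–2.17 FPKM in WT cells (a log2 rise of 1.81, standard error 0.29, edgeR adjusted p = 0.00513), and SOX4 rose by 1.01 (standard error 0.20, edgeR adjusted p = 0.0114). Both were called in all 14 other fits. SOX5 and SOX6, which work beside SOX9 in cartilage, followed SOX9 in being highest in FT_1. SOX5 had 1.15 FPKM in FT_1, 0 in FT_2 and FT_3 and 0.05–0.19 FPKM in WT cells, and SOX6 had 0.27 FPKM in FT_1 and 0 in the other 5 libraries. SOX5 was not called with all libraries (log2 fold change 1.85, edgeR adjusted p = 0.498) and was lower in FT cells without FT_1 (edgeR adjusted p = 0.00408), with counts of 0 in FT_2 and FT_3.

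The EMT factors that act beside TWIST1 moved in opposite directions. SNAI1 had 16.36, 12.96 and 10.88 FPKM in FT_1, FT_2 and FT_3 and 3.55–4.06 FPKM in WT cells, and its log2 level rose by 1.99 (standard error 0.16, edgeR adjusted p = 8.87e-04). SNAI2 had 7.73, 22.55 and 26.45 FPKM in the FT libraries and 110.97, 115.7 and 96.77 FPKM in the WT libraries. It fell by 2.34 (standard error 0.46, edgeR adjusted p = 0.0104), and by 1.97 without FT_1 (standard error 0.10, edgeR adjusted p = 3.26e-07). Both were called in all 14 other fits. ZEB1 rose by 0.41 (standard error 0.12, edgeR adjusted p = 0.0352), a call that limma did not make (adjusted p = 0.164) and that was lost without FT_2, WT_1, WT_2 or WT_3 (called in 5 of 14 fits, adjusted p 0.00780 to 0.204). ZEB2 was split over 2 gene identifiers and not counted, and both had their lowest value in FT_1, with 17.3 against 57.7 and 60.63 FPKM for ENSBTAG00000012615 and 2.15 against 9.95 and 9.06 FPKM for ENSBTAG00000048810.

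Of 15 forkhead and zinc finger factors of mesenchyme, 5 were up-regulated and 1 was down-regulated (40% called, beside 39% of all genes). Without FT_1 the numbers were 12 and 1, where 62.1% of all genes were called. The median log2 fold change with all libraries was 0.98. FT_1 lay more than 2-fold from the other FT libraries in 9 of the 15, beside 18.9% of all genes. GLI3, a transducer of Hedgehog signals that patterns the limb, rose by 1.14 (standard error 0.08, edgeR adjusted p = 7.69e-04), with 12.21, 11.65 and 11.65 FPKM in the FT libraries and 5.51–6.47 FPKM in WT cells. FOXP1 rose by 0.90 (standard error 0.11, edgeR adjusted p = 0.00235) and KLF4 fell by 1.55 (standard error 0.13, edgeR adjusted p = 9.52e-04). These 3 changed alike in all FT libraries. FOXC2 had 3.61 FPKM in FT_1, 0.6 in FT_2, 0.47 in FT_3 and 0.09–0.3 FPKM in WT cells (a log2 rise of 3.24, edgeR adjusted p = 0.0440, and of 1.73, adjusted p = 0.0317, without FT_1). It was called in 6 of 14 other fits and was not called in limma (adjusted p = 0.148) or without any 1 WT library (adjusted p up to 0.147, and up to 0.191 over 14 fits). OSR2, named after its values were seen, had 3.8 FPKM in FT_1 and 45.76 and 42.76 FPKM in FT_2 and FT_3, on both sides of the 22.22–25.44 FPKM of WT cells.

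The lineages that these factors serve were read from lists of their genes. Of the 16 cartilage genes, 13 were found and 4 tested, and 5 were at or below 0.1 FPKM in every library. COL11A1, a minor fibrillar collagen of cartilage that fibroblasts also make, had 147.32, 142.74 and 136.21 FPKM in FT cells and 28.21, 26.85 and 33.93 FPKM in WT cells. It rose by 2.42 (standard error 0.12, edgeR adjusted p = 5.23e-04) in all 3 FT libraries. ACAN, the cartilage proteoglycan, was at 0.03–0.19 FPKM in FT cells and 0.56–0.71 FPKM in WT cells, and its fall (-2.26, standard error 0.66, edgeR adjusted p = 0.0395) was not called without FT_2, WT_1, WT_2 or WT_3 (adjusted p up to 0.115). COL2A1, the defining collagen of cartilage, named after its values were seen, was at 0.07 FPKM in FT_1, the library with the most SOX9, and at 0 in the other 5.

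Of the 7 bone genes tested, edgeR called 0 in either direction, beside the higher RUNX2 and 39% of all genes called. At an unadjusted p under 0.05, 1 was higher and 0 were lower, DESeq2 called 1 and 0, and limma called 0 and 0. Without FT_1, 2 were higher and 4 were lower, where 62.1% of all genes were called. FT_1 lay more than 2-fold from the other FT libraries in 6 of the 7, beside 18.9% of all genes. SP7, the osteoblast factor that acts after RUNX2, is named for that role and after its values were seen. It was at 0.06, 0.4 and 0.61 FPKM in FT_1, FT_2 and FT_3 and at 0.09–0.24 FPKM in WT cells. MMP13, a RUNX2 target named after its values were seen, had 14.1 FPKM in FT_1, 0 in FT_2 and FT_3 and 0.38–0.65 FPKM in WT cells. FT_1 thus had both the most RUNX2 and the most MMP13, and the other FT libraries had less MMP13 than WT cells.

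Of 10 fat lineage genes tested, 1 was up-regulated and 3 were down-regulated (40% called, beside 39% of all genes). Without FT_1 the numbers were 2 and 5, beside 62.1% of all genes. CD36 fell from 1.96–4.11 FPKM in WT cells to 0, 0.04 and 0.05 FPKM in FT_1, FT_2 and FT_3 (edgeR adjusted p = 0.00455), and CIDEC from 2.27–3.2 FPKM to 0.08, 0 and 0 FPKM (edgeR adjusted p = 0.00903). FABP4 had 0.08, 4.67 and 5.95 FPKM in the FT libraries, with FT_1 far below the other 2, and 127.86–143.41 FPKM in WT cells. It fell by 5.10 in log2 level (standard error 1.17, edgeR adjusted p = 0.0176) and by 4.51 without FT_1 (adjusted p = 1.54e-08), a call lost without FT_2, WT_1, WT_2 or WT_3 (adjusted p up to 0.0594). CEBPB, an early factor of the lineage, rose by 0.92 (standard error 0.18, edgeR adjusted p = 0.0110), a call lost without WT_1 or WT_2 (adjusted p up to 0.0526). In the skeletal muscle list DES, which is also among the smooth muscle and pericyte markers below, was up-regulated (edgeR adjusted p = 0.00488). It had 5.74, 4.01 and 3.17 FPKM in the FT libraries and 0.07, 0 and 0 FPKM in the WT libraries. MYH3, at most 0.12 FPKM in any library, was the gene called lower of 6 tested (33.3% called, beside 39% of all genes). Without FT_3, WT_1, WT_2 or WT_3 it was not called (adjusted p up to 0.1496). Over 12 other fits MYH3 was called in 5. In the tendon list MKX and FMOD were up-regulated of 6 tested (33.3% called, beside 39% of all genes). The call of FMOD (log2 fold change 1.02, edgeR adjusted p = 0.0426) was lost in limma (adjusted p = 0.0813) and without FT_3, WT_1, WT_2 or WT_3 (adjusted p up to 0.145). Over 14 fits FMOD was called in 4, and without FT_1 its log2 fold change was 0.60 (adjusted p = 2.03e-04).

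Epithelial and mesothelial markers had their highest sums in FT_1, the library set apart for TWIST2, TBX15, PITX1 and SOX9. Both sums were also above every WT library in FT_2 and FT_3, the mesothelial sum by far. The epithelial markers, 10 of 10 found, summed to 457.48, 16.23 and 15.76 FPKM in FT_1, FT_2 and FT_3, and to 8.05–14.21 FPKM in WT cells. The most abundant was the basal keratin gene KRT5, with 171.54, 2.57 and 1.63 FPKM in the FT libraries and 0 in each WT library. Of the 7 epithelial markers tested, 6 were more than 2-fold higher in FT_1 than in both FT_2 and FT_3, beside 9.24% of all genes. KRT14 (128.14 FPKM) and KRT8 (84.14 FPKM) were also high in FT_1. EPCAM was at 0.57 FPKM and GRHL2 at 0.03 FPKM in FT_1, and both were at 0 in the other 5 libraries. These 4 were picked from the list after the values were seen, as was WT1 below. The mesothelial markers, 5 of 8 found, summed to 207.46 FPKM in FT_1, 45.1 in FT_2, 46.27 in FT_3 and 2.37–3.51 FPKM in WT cells. MSLN made up nearly all of that sum, and WT1 was at 0 in the FT libraries and at most 0.05 FPKM in WT cells. The part of these cell types in the result was not tested.

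The smooth muscle and pericyte markers, 10 of 10 found, had a higher sum in FT cells, and 7 of 10 were up-regulated, beside 20.1% of all genes. They summed to 2523.14, 3829.37 and 3682.76 FPKM in FT_1, FT_2 and FT_3 and to 1093.22–1222.41 FPKM in WT cells, and ACTA2 was the most abundant. The epithelial sum was far above WT cells (8.05–14.21 FPKM) in FT_1 alone, and slightly above them in FT_2 (16.23 FPKM) and FT_3 (15.76 FPKM). The smooth muscle sum was high in all FT libraries, as RUNX1 and RUNX2 were. In FT_1, 2 of the 10 were more than 2-fold below FT_2 and FT_3, beside 9.63% of all genes. RGS5, a pericyte marker named after its values were seen, was at 0.03 FPKM in FT_1 and 8.49 and 7.88 FPKM in FT_2 and FT_3. Blood and macrophage markers (7 of 8 found, LAPTM5 the most abundant), which bear on RUNX1, summed to 5.38, 10.32 and 9.81 FPKM in the FT libraries and 25.9–27.8 FPKM in WT cells. They were thus lower in the cells with more RUNX1, and SPI1, picked after the values were seen, was at most 0.03 FPKM in any library. Markers of glia (4 of 7 found, S100B the most abundant) summed to 4.31–13.07 FPKM over all libraries. Those of endothelium (7 of 8, PECAM1) summed to 0.51–1.52 FPKM and those of cartilage (5 of 6, ACAN) to 0.19–1.44 FPKM. Markers of neurons (5 of 7, MAP2) summed to 2.25–4.21 FPKM in FT cells and 7.77–8.08 FPKM in WT cells. Those of skeletal muscle (3 of 6, MYF5) summed to 0.03–0.65 FPKM in FT cells and 1.13–2.05 FPKM in WT cells. The part of these marker sets in the values of the factors was not tested.

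**Figure D5:**
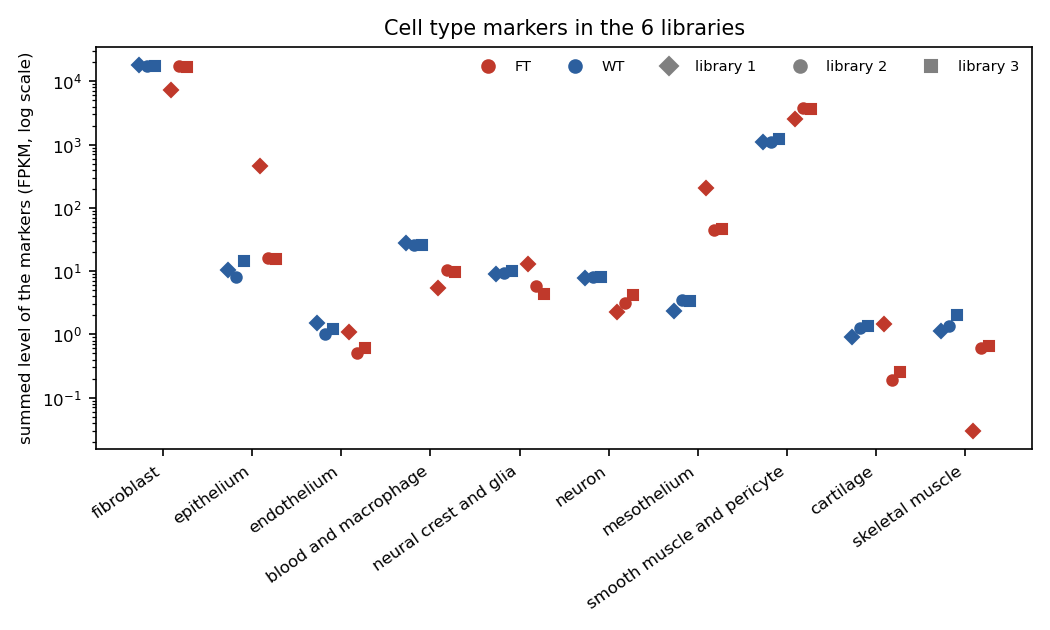
Summed level of the markers of 10 cell types (FPKM, log scale) in WT (blue) and FT (red) libraries, with a marker shape for each library number. The epithelial sum is highest in FT_1, at 457.48 FPKM, and the smooth muscle sum is higher in all FT libraries than in all WT libraries.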

How the data were processed

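The authors used HISAT with a UCSC genome for mapping, Perl scripts for merging transcripts, and StringTie and edgeR for levels. The submitters' processing notes name HISAT2 2.0, StringTie 1.3.0, Bowtie 0.12.2 and the build mm8, a mouse build at odds with the bovine gene identifiers. The bovine build, annotation release and strand setting are not given in the sources used here, and coordinates are those of the deposited table. The methods name an HiSeq instrument and the sample records a NovaSeq. The deposited count of each gene is a raw count per library. The deposited FPKM values are fragments scaled by gene length and library total.

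The members and lists were chosen with earlier results of these data known. In R 4.3.3, the counts were tested with edgeR 4.0.16 (TMM factors, filterByExpr, quasi-likelihood test, Benjamini-Hochberg adjustment over 13482 genes), the main test because the table holds counts. Log2 CPM used a prior count of 2. The fits were tested on simulated counts with the same spread in all libraries. As no simulated library stood apart as FT_1 did, that check does not cover such a library. From each related list the called genes with the largest rise and fall, and up to 2 further with the smallest p, were named, together with close partners of the factors. ZEB2, with 2 gene identifiers, was left out of list counts. The alternatives were median-ratio or no scaling, DESeq2 1.42.0, no filter, limma 3.58.1 on log2(FPKM + 1) or log2(FPKM + 0.1), for a mean FPKM of at least 0.5 or all genes, a replicate block, the threshold of the study's methods, and leaving out each library.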

Additional observations from a re-analysis of the deposited data

How the results depend on the processing

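RUNX1 and RUNX2 kept their direction and their call in all 14 other fits, and the counts of called factors rest on FT_1 for the rest. With the threshold of the study's methods (p under 0.05 without adjustment, and a log2 fold change beyond 1 either way), 1378 genes were higher and 1208 lower, against 2714 and 2547, and of the factors 1 was called in place of 2, since the 0.94 of RUNX1 misses the fold. Limma on log2(FPKM + 1) without a filter called 1744 genes higher and 3622 lower. Leaving out 1 library gave 1516–4215 higher and 1531–4337 lower genes, 2–5 higher factors, and 13–47 higher and 9–31 lower genes over all related lists, the lineage lists included, against 22 and 15 with all libraries. In each of these ranges the upper end is the fit without FT_1.

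Without scaling, the split of calls moved to 2049 higher and 3394 lower, beside 2714 and 2547. Limma, which also differs in measure, model and filter, gave 1837 and 3573. The median log2 fold change of all genes was -0.12 in both, against 0.03.

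The sign of factors near 0 turned. TWIST2 was at -0.10 without scaling, -0.57 in limma with and without a filter and -0.60 with the smaller pseudocount; it ran from -0.30 to 0.56 with 1 library left out. PRRX1 was at -0.0671 without scaling and -0.12 in each limma fit, and ran from -0.0936 to 0.32. TBX15 was at -0.12 without scaling, -0.64 in limma with and without a filter and -0.74 with the smaller pseudocount, and ran from -0.33 to 0.57. SOX9 ran from -0.32 to 2.19 and SOX5 from -7.37 to 2.43, both lowest without FT_1. The cause was not tested.

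The sources used here do not say that replicate numbers pair fetuses. Deviations of FT and WT libraries with equal numbers correlated at -0.001, -0.020 and 0.018 across genes, beside -0.026 to 0.028 for unequal numbers. These values cannot exclude shared handling of libraries with equal numbers. With the number as a block, 1838 genes were higher and 1741 lower, 2 factors were higher, and TWIST2 (-0.35), TBX15 (-0.46) and SOX5 (-1.68) changed sign, none of them called.

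Counts of 6 to 43 limit PITX1 and SOX9 outside FT_1, and 3 libraries per group limit all intervals.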
